A study of Mus musculus with 12 samples.

Results

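The Ifi200 family and Aim2 are 10 genes of a cluster on mouse chromosome 1, out of 48526 genes in the count table. The members are Aim2, Ifi206, Ifi213, Ifi209, Ifi208, Ifi207, Ifi204, Mndal, Ifi203 and Ifi205, in the order in which they lie along the chromosome. They were chosen by symbol, after gene identifiers had been matched to the GENCODE annotation of GRCm38. The family had come to attention because Ifi208, without and with LPS, and Ifi206, without LPS, were lower in knockout cells, so the genotype differences below are a description of the members and carry no test.

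The cells were bone marrow-derived macrophages (BMDMs), grown from mouse marrow in L929-conditioned medium, and the measurement was RNA-seq of their total RNA. The knockout (KO) mice were HSS9 KO homozygotes, which carry a germline deletion upstream of Tnf on another chromosome than the family, and the wild-type (WT) mice were HSS9+/+ controls. Cells of each genotype were left untreated (UT, PBS) or stimulated with lipopolysaccharide (LPS) for 6 hr, which gave 4 groups of 3 libraries, called WT LPS, WT UT, KO LPS and KO UT. All mice were young adult males according to the methods of the study. The deletion is present in every cell of the KO mice, and the labels call the controls littermates whereas the methods describe purchased C57BL/6 mice and a KO line kept by homozygous breeding. If so, the origin of the mice and the deletion cannot be told apart.

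The 10 genes code for proteins of the PYHIN family. Such proteins typically pair a pyrin domain, which binds other pyrin domains, with a HIN domain, which binds DNA. Aim2 binds double-stranded DNA in the cytosol and assembles an inflammasome with the adaptor Pycard (ASC) and caspase-1, and several Ifi200 genes are known as targets of type I interferon, which macrophages release after LPS. IFI204 has been studied as a DNA sensor that acts through STING.

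The cluster spans chr1:173350879-174031810 in GRCm38, from the start of Aim2 to the end of Ifi205. Aim2 (chr1:173350879-173466040), Ifi209 (chr1:173630917-173647928) and Ifi208 (chr1:173673675-173698395) lie on the plus strand. On the minus strand lie Ifi206 (chr1:173468485-173491041), Ifi213 (chr1:173566283-173599274), Ifi207 (chr1:173723427-173741747), Ifi204 (chr1:173747293-173766943), Mndal (chr1:173849126-173942491), Ifi203 (chr1:173920407-173942672) and Ifi205 (chr1:174011998-174031810). All 10 are annotated as protein-coding. Exons of Mndal overlap those of Ifi203 and Gm38050 on the same strand, over 4.27% of its exon bases in all, and 0.552% of the exon bases of Ifi203 overlap Mndal, so reads there cannot be assigned with certainty.

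RefSeq promoter entries (GRCm38.p6, 250 bases upstream of a transcript start and the stretch just downstream of it) were matched for 9 of the 10 members, all but Ifi204. The interferon-stimulated response element, the binding motif of interferon-activated factors, was searched on both strands by its core GAAANNGAAA (reverse TTTCNNTTTC). These letters occurred in the promoters of 7 of the 9 members, beside 3.46% of all 27025 genes with an entry and 2.98% of all 32851 promoter entries, and no match was found in the windows of Aim2 and Ifi209. The interferon-gamma activated motif TTCNNNGAA occurred in 0 of the 9 members, beside 8.13% of all genes and 7.02% of all entries. As that motif has no match in the members, no overlap between the motifs can arise in these windows. The stretches around the core are shown because they let the members be compared base by base, with the core in capitals and each sequence written 5′ to 3′ in the direction of its gene. Ifi208 (chr1:173673592-173673631, plus strand), Ifi213 (chr1:173599321-173599360, minus strand), Ifi206 (chr1:173491334-173491373, minus strand), Ifi207 (chr1:173741826-173741865, minus strand), Mndal (chr1:173880199-173880238, minus strand), Ifi203 (chr1:173942503-173942542, minus strand) and Ifi205 (chr1:174031865-174031904, minus strand) read as follows.
Ifi208: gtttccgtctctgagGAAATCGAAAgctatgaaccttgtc
Ifi213: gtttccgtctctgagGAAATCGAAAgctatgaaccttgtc
Ifi206: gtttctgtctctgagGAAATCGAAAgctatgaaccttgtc
Ifi207: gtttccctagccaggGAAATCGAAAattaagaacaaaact
Mndal: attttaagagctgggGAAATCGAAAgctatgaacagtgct
Ifi203: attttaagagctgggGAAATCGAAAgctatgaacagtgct
Ifi205: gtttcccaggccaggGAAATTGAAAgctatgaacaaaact
The windows of Ifi208 and Ifi213 were identical over all 40 bases. That of Ifi206 differed from them by the single substitution C6T, counted from 1 at the 5′ end of the window of Ifi208. Ifi207 shared 25 of the 40 bases with Ifi208, Ifi205 shared 26, and Mndal and Ifi203, whose windows were identical, shared 28. In these windows the core read GAAATCGAAA in 6 of the 7 members and GAAATTGAAA in Ifi205. Mndal and Ifi203 each had a further promoter entry. That of Mndal held a match on the reverse strand, TTTCTCTTTC (window chr1:173879988-173880027), and that of Ifi203 held 0 matches. A match describes the letters only and is no evidence of binding.

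Library totals ranged from 26154533 to 36423921 counts, and 15523 genes passed the filter on low counts, including all 10 members. All 7 macrophage markers were detected in every group, with summed levels of 24434 to 33679 CPM (read counts scaled to the library size after TMM normalization), while the summed markers of any other cell type stayed at or below 26.1 CPM. Tnf, upstream of which the deletion lies, had a mean of 15.3 ± 0.757 CPM (SD, n = 3) in WT UT, 9.71 ± 0.727 in KO UT, 889.7 ± 57.4 in WT LPS and 432 ± 15.2 in KO LPS. After LPS Tnf was lower in KO (log2 fold change −1.04, adjusted p = 2.76e-10, edgeR). The share of counts in small structured RNAs was 3.00% to 3.25% in WT UT, 6.64% to 7.98% in KO UT, 4.04% to 6.89% in WT LPS and 3.23% to 3.43% in KO LPS, so the genotypes did not overlap in it, with KO higher among UT libraries and lower among LPS libraries. In RNA from whole cultures, fewer cells of a type and less RNA per cell cannot be told apart.

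The members differed widely in basal level. Per kb of annotated exon, the mean level in WT UT was highest for Ifi204 (66.6 CPM per kb) and Ifi207 (65.7), followed by Ifi209 (42.1), Mndal (33.8), Ifi203 (16.1), Aim2 (10.5), Ifi206 (7.07) and Ifi213 (6.26). Ifi208 (0.904) and Ifi205 (0.493) were the lowest. After LPS the WT order became Ifi204 (450.0 CPM per kb), Ifi209 (407), Ifi205 (294), Mndal (261), Ifi207 (125), Ifi203 (112), Ifi206 (89.5), Ifi213 (78.8), Aim2 (40.4) and Ifi208 (18.6). Ifi205 thus moved from the last place to the third, and Ifi207 from the second to the fifth. In WT UT Ifi204 and Ifi207 differed by less than their SDs. The order depends on the length used: per kb of the longest annotated transcript, Mndal (60.6) lay above Ifi209 (43.4) in WT UT, and Ifi205 (375) was behind Mndal (467) and Ifi209 (420) in WT LPS.

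**Figure D1:**
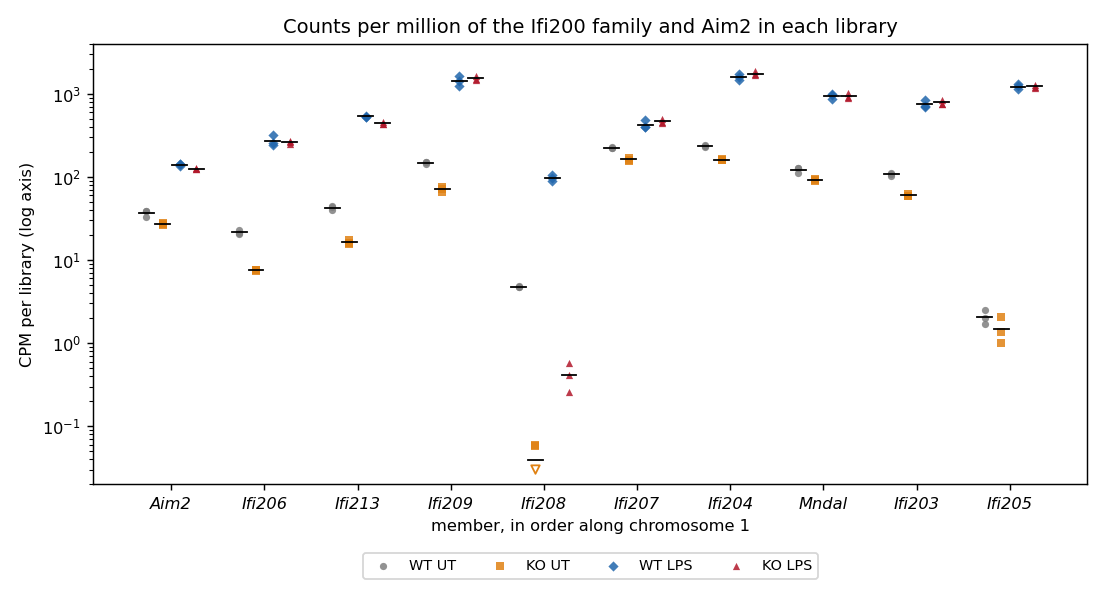
CPM (log axis) of the 10 members in each of the 12 libraries, by group, with points for libraries and black lines for group means; the open triangle marks the KO UT library with 0 counts of Ifi208. Every member lay higher in both LPS groups than in the UT group of the same genotype, KO UT lay below WT UT for 9 members without overlap, and Ifi208 was near the floor in KO.

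The question asked of the LPS contrasts was how each member responds within a genotype. In WT macrophages, 9 of the 10 members rose past the call (adjusted p below 0.05 and more than 1 on the log2 scale, edgeR), beside 19.1% of all genes tested that were called higher. The median log2 fold change of the members was 3.11, against 0.05 over all genes tested. In KO macrophages all 10 met the criteria of the call, beside 17.7% of all genes, with a median of 3.58 against −0.06. The KO UT values of Ifi208 and Ifi206, for which the family was chosen, are the baseline of this contrast, and those of Ifi208 are under the floor of 3 counts, so both KO responses are a description with no test and nothing is read from the count of 10. For all 10 members the LPS libraries lay above the UT libraries without overlap, in WT (beside 38.5% of all genes) and in KO (36.6%). It follows that within each of the 3 batches every member was higher with LPS.

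Ifi205 had the largest LPS response of the members. It was counted at 1.68, 2.49 and 2.00 CPM in WT UT and at 1304, 1246 and 1133 CPM in WT LPS. The KO libraries held 1.01, 1.35 and 2.07 CPM without LPS and 1223, 1195 and 1288 CPM with LPS. From being barely counted in UT, the gene took the third place among the members per kb of exon in both LPS groups. The log2 fold change was 9.21 (SE 0.14, adjusted p = 3.69e-23, edgeR) in WT and 9.68 (SE 0.14, adjusted p = 3.44e-23) in KO.

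Aim2, the DNA sensor of the inflammasome, responded less. Its levels were 38.8, 38.8 and 32.9 CPM in WT UT and 145, 137 and 142 CPM in WT LPS. In KO they were 26.7, 28.3 and 27.2 CPM without LPS and 127, 124 and 127 CPM with LPS. All 4 groups stood apart from each other, in the order KO UT, WT UT, KO LPS and WT LPS. Aim2 rose by 1.94 on the log2 scale in WT (SE 0.06, adjusted p = 2.59e-17, edgeR) and by 2.20 in KO (SE 0.06, adjusted p = 4.19e-18).

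Ifi207 had the smallest response. It went from 223, 230.1 and 221 CPM in WT UT to 481, 405 and 399 CPM in WT LPS, a log2 difference of 0.93 (SE 0.07, adjusted p = 3.75e-11, edgeR) that stayed just under the minimum of the call. In KO it rose from 155, 162 and 171 CPM to 463, 451 and 496 CPM, by 1.53 (SE 0.07, adjusted p = 7.81e-15). Of all members Ifi207 was thus the least inducible and, in UT cells, among the highest per kb.

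Ifi206, Ifi213 and Ifi209 lie at lower coordinates than Ifi208, with Ifi214 between Ifi206 and Ifi213, and each rose with LPS in WT. Ifi206 had 21.4, 20.6 and 22.8 CPM in WT UT and 323, 254 and 243 CPM in WT LPS, a rise of 3.66 (SE 0.09, adjusted p = 1.73e-19, edgeR). Ifi213 went from 43.6, 44.4 and 40.5 CPM to 535, 531 and 551 CPM, a rise of 3.65 (SE 0.06, adjusted p = 3.89e-22). Ifi209 went from 144, 150 and 154 CPM to 1627, 1447 and 1257 CPM, a rise of 3.27 (SE 0.08, adjusted p = 1.55e-19). In each of the 3 genes the LPS libraries were all several times higher than the UT libraries.

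In KO cells the same 3 genes started from lower levels. Ifi206 went from 7.58, 7.58 and 7.33 CPM to 261, 249.8 and 272 CPM (log2 fold change 5.12, SE 0.10, a description). Ifi213 rose from 15.96, 17.6 and 15.5 CPM to 439, 439.8 and 461 CPM (4.77, SE 0.07, adjusted p = 2.01e-23, edgeR). Ifi209 rose from 66.4, 71.4 and 75.2 CPM to 1529, 1475 and 1660.1 CPM (4.45, SE 0.08, adjusted p = 2.01e-21). After LPS the KO libraries of Ifi206 and Ifi209 overlapped those of WT, and those of Ifi213 lay below them.

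Ifi204, Mndal and Ifi203 lie beyond Ifi208 on the minus strand and also rose in both genotypes. Ifi204 had a mean of 237 ± 8.12 CPM (SD, n = 3) in WT UT, 1602 ± 145 in WT LPS, 161 ± 1.42 in KO UT and 1757 ± 101 in KO LPS, a rise of 2.76 (SE 0.06) in WT and 3.44 (SE 0.07) in KO. Mndal went from 123 ± 8.55 to 947 ± 69.3 CPM in WT and from 91.5 ± 2.68 to 948 ± 77.1 CPM in KO, by 2.95 (SE 0.07) and 3.37 (SE 0.07). Ifi203 went from 108 ± 5.05 to 753 ± 77.4 CPM in WT and from 60.0 ± 1.67 to 790.5 ± 46.3 CPM in KO, by 2.81 (SE 0.07) and 3.72 (SE 0.07). All 6 rises passed the call, with adjusted p-values from 2.38e-21 to 2.82e-19 (edgeR), and in none of these 3 genes were the LPS libraries of the genotypes apart.

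**Figure D2:**
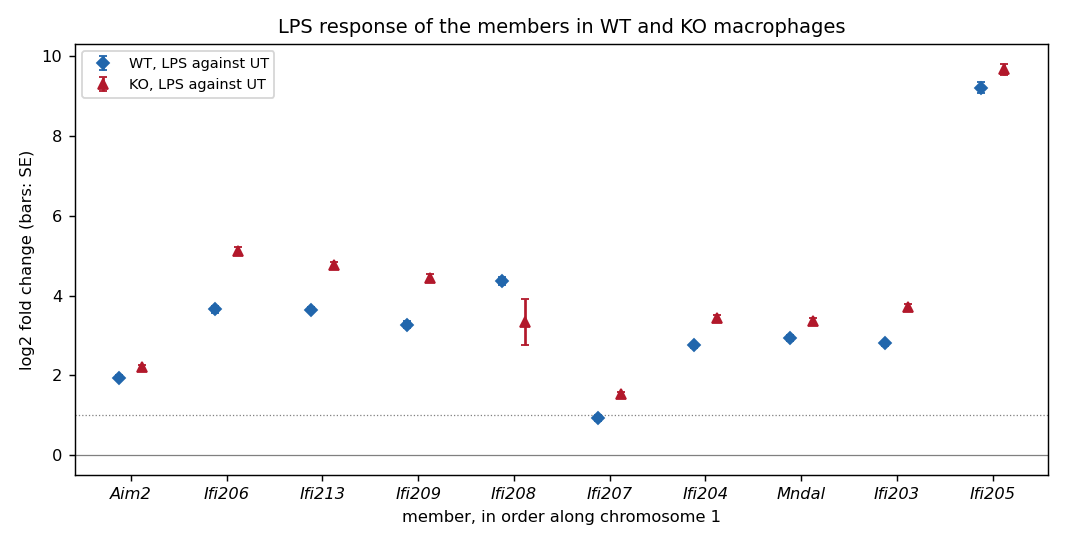
Log2 fold change of each member with LPS against UT (y axis), in WT and KO macrophages, with bars for the SE and a dotted line at the minimum of the call. Ifi205 stands highest at 9.21 in WT and 9.68 in KO, Ifi207 lowest at 0.93 and 1.53, and the KO value lies above the WT value for every member but Ifi208, whose KO point (3.35) depends on the prior count.

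Ifi208 differed from the rest of the family in KO cells. The counts were 207, 212 and 223 in WT UT and 2873, 2172 and 1894 in WT LPS, against 2, 2 and 0 in KO UT and 15, 11 and 7 in KO LPS. The highest KO library, stimulated with LPS, thus held fewer reads than any WT UT library. In CPM the WT libraries held 4.84, 4.68 and 4.74 without LPS and 107, 97.5 and 89.3 with LPS, and the KO libraries 0.0578, 0.0587 and 0 without LPS and 0.575, 0.413 and 0.256 with LPS. The order of the groups was KO UT, KO LPS, WT UT and WT LPS, with no overlap between neighbours, and for every other member both LPS groups lay above both UT groups.

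With LPS Ifi208 rose by 4.37 in WT (SE 0.10, adjusted p = 4.79e-20, edgeR), the second-largest response of the members after Ifi205. In KO the KO UT libraries were all under the floor of 3 counts, so the response there is given as a bound, at least 4.96-fold higher than the mean floor of the KO UT libraries (0.0836 CPM). The fitted log2 fold change, 3.35 (SE 0.58), depends on the prior count and is given as a description with no test, because the KO UT values helped to choose the family and the gene passed the filter on low counts through the WT groups. Between genotypes Ifi208 was at least 56.9-fold lower in KO UT than in WT UT, against the same floor, and 236-fold lower in KO LPS than in WT LPS (log2 fold change −7.88, SE 0.15). The latter was the lowest log2 fold change of all 15523 genes tested. Its share of the summed CPM of all members was 0.484% to 0.525% in WT UT and 1.31% to 1.33% in WT LPS, and at most 0.00992% in any KO library.

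Part of the annotated exon sequence is shared between members, which bears on how the few KO reads could be assigned. Of the 100-base windows of Ifi208 transcripts, 5.92% also occurred in another gene, namely in Ifi213 and Ifi206. The same share was 13.1% for Ifi206, 3.30% for Ifi213, 16.9% for Ifi209, shared with Ifi214, and 15.04% for Ifi205, shared mainly with Ifi211. It was 10.7% for Ifi204, 6.38% for Mndal, 2.84% for Ifi203, 0.790% for Ifi207 and 0% for Aim2. How reads with several matches were counted is not stated, and the part of shared sequence in the KO counts of Ifi208 was not tested.

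Without LPS, every member had a lower fitted level in KO UT than in WT UT. Ifi208 (at least 56.9-fold lower, since its KO UT counts were under the floor), Ifi206 (−1.53, SE 0.10, on the log2 scale), Ifi213 (−1.39, SE 0.06) and Ifi209 (−1.07, SE 0.08) met the criteria of the call, 4 of the 10 members, beside 0.799% of all genes tested that were called lower. These values are of the contrast that brought the family up and nothing is read from the count. The other 6 members lay between −0.84 and −0.42, namely Ifi203 at −0.84 (SE 0.07), Ifi204 at −0.56 (SE 0.06), Ifi207 at −0.46 (SE 0.07), Ifi205 at −0.46 (SE 0.18), Aim2 at −0.43 (SE 0.06) and Mndal at −0.42 (SE 0.07). The median over the members was −0.70, against 0.00 over all genes tested.

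The libraries themselves show the same order. For 9 members all KO UT libraries lay below all WT UT libraries, beside 19.1% of all genes tested, and Ifi205 was the exception, with a KO UT library (2.07 CPM) above 2 of the WT UT libraries. The 9 were therefore also lower in KO in each of the 3 batches, which adds nothing to the lack of overlap. Summed over the members, the level was 949.7 ± 23.5 CPM (SD, n = 3) in WT UT and 600 ± 15.1 CPM in KO UT. Relative to each other the genes that differed most, Ifi206, Ifi213, Ifi209 and Ifi208, form the uninterrupted stretch of the members between Aim2 and Ifi207.

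The higher share of small structured RNAs in KO UT libraries moves with this difference. Since the UT libraries of the genotypes do not overlap in that share, the share and the genotype cannot be told apart there. The covariate values are a description. With that share as a covariate, an alternative chosen after seeing the data, Ifi208 (fitted value −6.46, which depends on the prior count) and Ifi213 (−1.48) still met the criteria. Ifi206 (−0.88) and Ifi209 (−0.43) fell short of the fold minimum alone, and Ifi207 was at 0.01. Of the others, Ifi203 was at −0.38, Ifi204 at −0.14, Mndal at −0.13 and Ifi205 at −0.05, each closer to 0 by more than 1.5 times, and Aim2 at −0.42. The scaling of the libraries also moved the balance of all genes in this contrast, from 159 called higher and 124 lower with TMM to 134 and 168 with the relative log expression scaling of DESeq2, and the 10 members kept their sign under each scaling tried.

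**Figure D3:**
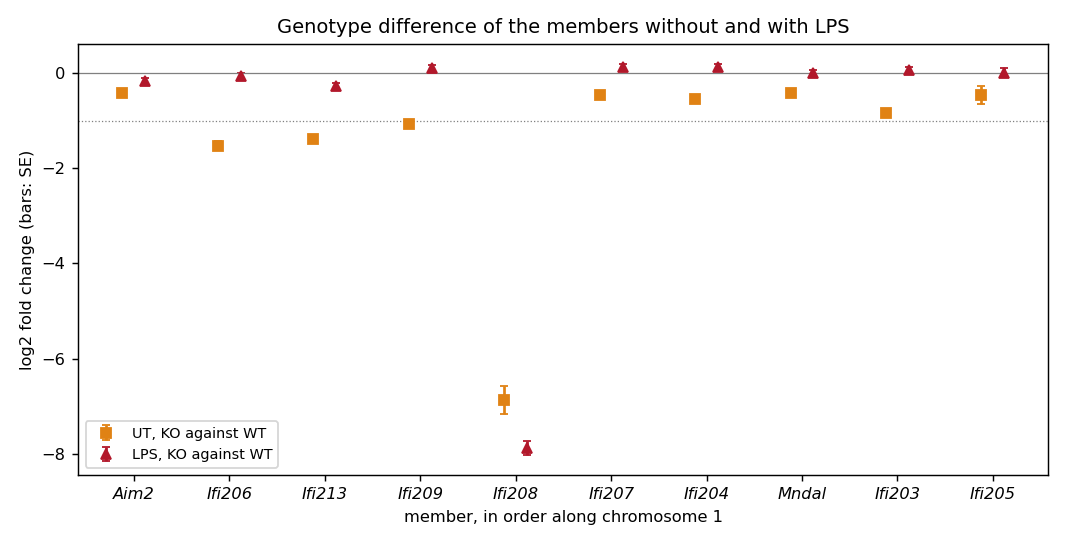
Log2 fold change of each member in KO against WT (y axis), for UT and LPS libraries, with bars for the SE and a dotted line at the fold minimum of the call for lower genes. All UT values lie below 0. The UT point of Ifi208 (−6.87) is a fitted value that depends on the prior count, since its KO UT counts were under the floor, and only a difference of at least 56.9-fold can be given. In the UT libraries the other 9 members lie between −1.53 and −0.42, whereas with LPS 9 of the 10 members lie between −0.27 and 0.13 and Ifi208 lies at −7.88.

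After LPS the fitted values of the members other than Ifi208 lay nearer to 0 than in UT, which is a description with no test. Ifi208 was the only member of the 10 that met the criteria of the call, beside 0.664% of all genes tested that were called lower, and again nothing is read from that count. Ifi213 lay at −0.27 (SE 0.06), Aim2 at −0.17 (SE 0.06) and Ifi206 at −0.07 (SE 0.08). The remaining 6 members had values from 0.00 for Mndal to 0.13 for Ifi207 and Ifi204. With the share of small structured RNAs as a covariate all 10 members lay below 0, with Ifi206 at −0.40, Ifi209 at −0.23, Ifi213 at −0.22 and the others apart from Ifi208 between −0.21 and −0.08. The KO and WT libraries did not overlap for Ifi208, Ifi213 and Aim2, 3 of the 10 members beside 14.9% of all genes, and overlapped for the other 7. The summed level of the members was 7453 ± 620 CPM (SD, n = 3) in WT LPS and 7590 ± 412 CPM in KO LPS.

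The fitted LPS response was larger in KO than in WT for the 9 members other than Ifi208. The UT values that drew attention to the family enter this difference, so it is given as a description with no test. The difference of the responses, KO minus WT on the log2 scale, was 1.46 (SE 0.13) for Ifi206, 1.18 (SE 0.10) for Ifi209 and 1.12 (SE 0.08) for Ifi213, and these 3 met the criteria of the call, beside 0.522% of all genes that were called higher in this contrast, and nothing is read from that count. Without the fold minimum the count was 8 of the 10 members, beside 7.32% of all genes, and nothing is read from it either. The difference was 0.91 (SE 0.09) for Ifi203, which reached 1.00 and the call without WT LPS replicate 1, 0.69 (SE 0.08) for Ifi204, 0.60 (SE 0.09) for Ifi207, 0.47 (SE 0.20) for Ifi205, 0.43 (SE 0.09) for Mndal and 0.26 (SE 0.09) for Aim2. The fitted value of Ifi208, −1.01 with an SE of 0.97, rests on KO UT counts under the floor and depends on the prior count. With the share of small structured RNAs as a covariate only Ifi213 (1.26) still met the criteria, Ifi206 was at 0.47 and Ifi209 at 0.20, and Ifi207 (−0.12), Mndal (−0.03) and Ifi205 (−0.16) changed sign.

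Other PYHIN genes of the same cluster were measured beside the members. Of 8 further symbols, 4 were matched (Ifi214, Ifi211, Ifi202b and the pseudogene Ifi203-ps), and 3 were tested. Ifi202b, which codes for a protein with HIN domains and no pyrin domain, had at most 13 counts in any library. Ifi214 had 0.907 ± 0.254 CPM in WT UT, 0.237 ± 0.137 in KO UT, 40.0 ± 0.648 in WT LPS and 22.6 ± 2.58 in KO LPS. It was lower in KO both without LPS (log2 fold change −1.96, SE 0.33, adjusted p = 1.27e-04, edgeR) and with LPS (−0.82, adjusted p = 2.83e-05), the latter short of the fold minimum. The UT value rests on few counts, 38, 30 and 55 in WT UT and 13, 8 and 4 in KO UT. Of the windows of Ifi214, 7.29% also occur in Ifi209, so its counts are uncertain. Among the PYHIN genes tested, only Ifi208 had a lower fitted log2 fold change than −1.96 in UT.

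Ifi203-ps was lower in KO UT (−1.06, adjusted p = 3.93e-09, edgeR) and, short of the fold minimum, in KO LPS (−0.47, adjusted p = 2.56e-05). Ifi211 had −0.58 in UT (adjusted p = 8.26e-06) and 0.08 with LPS (adjusted p = 0.476), but 56.9% of its windows also occur in other genes, so its counts are uncertain. With LPS 0 of the 3 were called between genotypes by edgeR or DESeq2, beside 194 of all 15523 genes by edgeR, and 2 had an unadjusted p below 0.05. All 3 rose with LPS in both genotypes, by 2.71 to 6.59 on the log2 scale.

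Outside the PYHIN genes, 47 genes of the count table lie within 500 kb of the cluster, of which 30 had 0 counts in every library and only 5 were tested. The pseudogene Gm18752 starts 27.7 kb from the start of Ifi208 and was counted at 18, 17 and 22 reads in WT LPS against 3, 1 and 1 in KO LPS (log2 fold change −3.63, adjusted p = 0.00268, edgeR). It shares exon windows with Ifi206, so these few reads are uncertain, and DESeq2 called 0 of the 5 neighbours in this contrast. Among the others Gm18445 rose with LPS in both genotypes, from at most 2 counts to between 322 and 574 counts in a library, with −0.28 between KO LPS and WT LPS (adjusted p = 0.204). Olfr433, an olfactory receptor gene, and Olfr431-ps1 had no more than 44 counts in any library and were not called between genotypes.

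**Figure D4:**
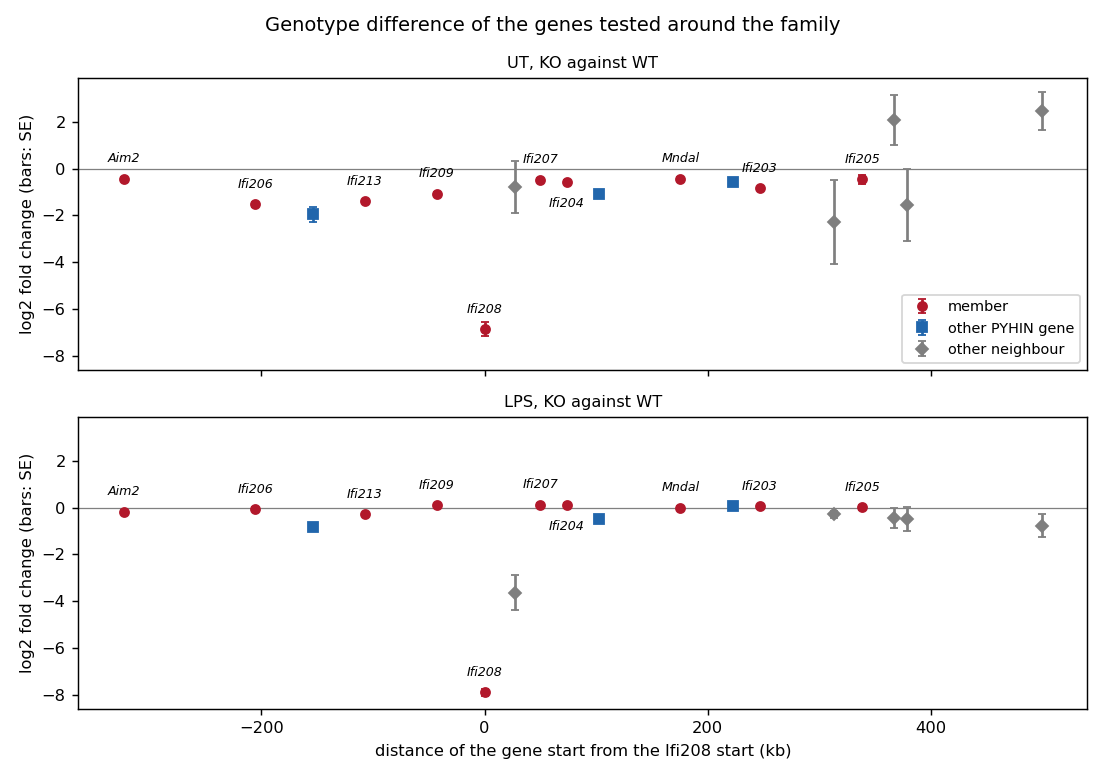
Log2 fold change in KO against WT (y axis, bars for the SE) of the 18 tested genes of the cluster and its surroundings, by distance of the gene start from that of Ifi208 in kb, for UT (top) and LPS (bottom). In UT the members form a run of values below 0 with Ifi208 far below, and with LPS Ifi208 at −7.88 and Gm18752 at −3.63 stand apart from members near 0.

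The other genes of the interferon pathway give the setting of these differences. Of 28 interferon-stimulated genes outside the family 27 were tested. All 27 rose with LPS past the call in both genotypes, beside 19.1% of all genes in WT and 17.7% in KO. Their median log2 fold changes were 3.32 in WT and 4.19 in KO, against 0.05 and −0.06 over all genes tested. Without LPS, 24 of the 27 were lower in KO at an adjusted p below 0.05 (edgeR), beside 9.69% of all genes. Of these 2 were called, beside 0.799% of all genes called lower. The called genes were Ifi44 (51.3 ± 2.73 CPM in WT UT and 16.8 ± 1.07 in KO UT, log2 fold change −1.61, adjusted p = 1.68e-12) and Oasl1 (22.6 ± 0.0820 and 10.2 ± 0.539 CPM, −1.15, adjusted p = 2.86e-11). With the share of small structured RNAs as a covariate 4 were called. The median of the list was −0.70 in UT, to 2 decimals the same as that of the members. After LPS 0 of the 27 were called between genotypes by edgeR or DESeq2, beside 194 of all 15523 genes by edgeR. Of the 27, 10 had an unadjusted p below 0.05, 6 were lower in KO at an adjusted p below 0.05 (beside 6.54% of all genes), and the median was −0.08.

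Among 15 genes of type I interferon production and signalling, 9 rose with LPS past the call in each genotype, beside 19.1% of all genes in WT and 17.7% in KO. Irf7, an interferon-induced transcription factor, was the only one of the 15 called between genotypes in UT, beside 283 of all 15523 genes. It had 162 ± 2.08 CPM in WT UT and 70.0 ± 0.622 in KO UT (−1.21, adjusted p = 3.31e-12, edgeR). With the share of small structured RNAs as a covariate 0 of the 15 were called in UT, and without WT UT replicate 2 there were 2 calls. With LPS Irf7 did not pass the test (−0.06, adjusted p = 0.505). Ifnb1, the interferon beta gene, was hardly counted, at a mean of 1.87 CPM in WT LPS and 0.913 CPM in KO LPS (−1.03, adjusted p = 0.0797), and its UT values are too low for a comparison. With LPS 0 of the 15 were called between genotypes by edgeR, beside 194 of all 15523 genes. Of the 15, 9 had an unadjusted p below 0.05, and DESeq2 called 1, Ifnb1.

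The partners of Aim2 were measured as well. Of 11 inflammasome genes 0 were called between genotypes by edgeR or DESeq2, without or with LPS, beside 283 and 194 of all 15523 genes by edgeR. With so few calls over all genes, 0 calls in a short list do not show that its genes are unchanged. At an adjusted p below 0.05 (edgeR) 2 were higher and 2 lower in KO UT. Without and with LPS, 5 and 3 had an unadjusted p below 0.05. Casp1, the protease of the inflammasome, had −0.06 in UT (adjusted p = 0.517, edgeR) and 0.00 with LPS (adjusted p = 1.00). Pycard, the adaptor that Aim2 binds, was higher in KO UT at an adjusted p of 1.44e-04, by 0.48 on the log2 scale and thus under the fold minimum. So was Ninj1, by 0.59 (adjusted p = 3.95e-06, edgeR). Of 8 genes of cytosolic DNA sensing 0 were called between genotypes by edgeR or DESeq2, beside the same counts over all genes. In this list 4 without LPS and 0 with LPS had an unadjusted p below 0.05. Zbp1, a nucleic acid sensor that is induced by interferon, had −0.74 in UT (adjusted p = 1.18e-08) and −0.07 with LPS (adjusted p = 0.464), and Tmem173, which codes for STING, had −0.02 in UT (adjusted p = 0.869).

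**Figure D5:**
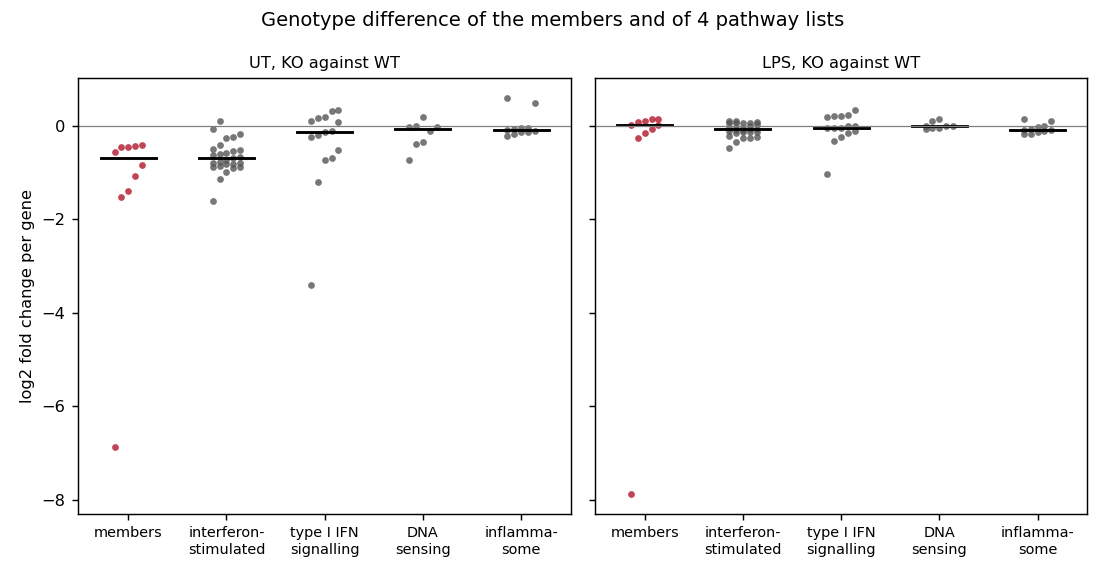
Log2 fold change in KO against WT of each member and of each tested gene of 4 pathway lists (y axis), for UT (left) and LPS (right), with black lines at the medians. In UT the medians of the members and of the interferon-stimulated genes both lie at −0.70, and with LPS all medians lie near 0 while Ifi208 lies at −7.88; the low point of type I interferon signalling in UT is Ifnb1, which had 0 counts in KO UT.

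Over the 12 libraries, the genes whose log2 CPM was most like that of Ifi208 among 9575 candidates outside the cluster were Mid1 (Pearson r = 0.984), Fcho1 (0.962), Sirpb1c (0.959), Lrmda (0.955) and Fosl2 (0.951). Mid1, which codes for a ubiquitin ligase, had the lowest KO UT mean of these 5, with 8.603 ± 0.354 CPM in WT UT, 0.704 ± 0.369 in KO UT, 51.5 ± 1.81 in WT LPS and 3.31 ± 0.490 in KO LPS. Aim2 was most like Helz2 (0.998), Trim30b (0.998), Il17ra (0.998), Plekhm3 (0.998) and Tgtp2 (0.998). By Spearman's rho Ifi208 shared 4 of its 5 genes with this list, with Gm1966 in place of Fcho1. Aim2 shared 0 and was most like Nfat5, Atxn7, Birc6, Ep400 and Arhgap17 (rho = 0.993 each), so its list depends on the measure. The 12 points share 4 group means and are a description of these libraries.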

How the data were processed

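RNA libraries were stranded and globin-depleted. Per the submitters' processing notes, the authors aligned reads to GRCm38 by HISAT2 2.1.0 and obtained gene counts by featureCounts 2.0.0. The deposited table holds raw counts per gene. The annotation release and the strand and multi-mapping settings are not given in the sources used here. Of 48526 gene identifiers, 48144 were matched to GENCODE by identifier without version, and the 382 others held 0.122% of counts.

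Genes were kept by filterByExpr (minimum count 10, total 15), leaving 15523 genes (99.96% of counts). A single model held all 12 libraries as 4 groups and was fitted in edgeR 4.0.16 (R 4.3.3, limma 3.58.1) with TMM scaling and the quasi-likelihood test. The test was also run on simulated counts, with genes changed in KO UT only, no LPS effect and a single spread for all genes. That setting is simpler than these libraries, so it does not show how the test performs on them. P-values were adjusted over all genes by the Benjamini-Hochberg method. Genes were called at the thresholds of the study, 0.05 for the adjusted p and 1 for the size of the log2 fold change. DESeq2 1.42.0 and other settings were alternatives. The SE is the log2 fold change over the square root of F. Libraries are not stated to come from separate animals, so p-values measure the spread between these libraries. The floor was 3 counts per library and leaves out any error but that of counting, and PCR duplicates were not told apart by molecular identifiers. Replicate libraries differed by more than counting noise (chi-square per degree of freedom 3.80 to 46.4).

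The labels give each replicate number as a batch number, which pairs the groups by label. Deviations of same-numbered libraries correlated at −0.0631 to 0.0373 over 18 pairs, none above 0.1. The members and the gene lists were chosen with earlier results of these data known. Named genes are the members, the other PYHIN genes, Tnf, the 5 genes most like Ifi208 and Aim2 (mean CPM of at least 5, prior count 2), and of each list the called genes with the largest changes or set examples. Neighbours, Tmem173 and the genotype difference of Ninj1 were named after their values were seen. Plots used matplotlib 3.10.9 (Python 3.11.15). Values of 2 genes outside the family are not reported here.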

Additional observations from a re-analysis of the deposited data

Results flagged for a closer look

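A larger fitted LPS response in KO than in WT brought 8 of the 10 members up for a closer look, by the interaction term of the edgeR fit across all genes. The UT levels for which the family was chosen are one side of this difference, so the values are a description and support no statement that the responses differ. As a difference of log2 fold changes, KO minus WT, it was 1.46 (SE 0.13) for Ifi206, 1.18 (SE 0.10) for Ifi209, 1.12 (SE 0.08) for Ifi213, 0.91 (SE 0.09) for Ifi203, 0.69 (SE 0.08) for Ifi204, 0.60 (SE 0.09) for Ifi207, 0.43 (SE 0.09) for Mndal and 0.26 (SE 0.09) for Aim2. With the share of small structured RNAs as a covariate the values were 0.47 for Ifi206, 0.20 for Ifi209, 1.26 for Ifi213, 0.20 for Ifi203, 0.06 for Ifi204, −0.12 for Ifi207, −0.03 for Mndal and 0.24 for Aim2.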

How the results depend on the processing

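Calls on members held under most alternatives. Each was counted with every library left out in turn (members called stayed at 4 for KO UT against WT UT and 1 for KO LPS against WT LPS, and ran from 3 to 4 for the interaction, where Ifi203 reached 1.00 without WT LPS replicate 1). With the replicate block 4, 1 and 3 members were called in these contrasts, and the block changed no call on a member. Without a fold minimum the counts were 9, 2 and 8. With the small structured RNA share as a covariate 2 were called in UT and 1 in the interaction. Ifi207 passed the call in WT with protein-coding genes only (1.01) and with the covariate (1.22). Values near 0 changed sign. For KO LPS against WT LPS, Mndal had −0.021 and Ifi205 −0.014 with upper-quartile scaling, −0.014 and −0.0074 where a mean CPM of at least 1 was required, and −0.033 and −0.026 with protein-coding genes only. With libraries left out in turn, Ifi206 ran from −0.15 to 0.071 (above 0 only without WT LPS replicate 1), Mndal from −0.065 to 0.048 and Ifi205 from −0.045 to 0.055. With the covariate the sign changed for Ifi209 (−0.23), Ifi207 (−0.11), Ifi204 (−0.080), Mndal (−0.15), Ifi203 (−0.17) and Ifi205 (−0.21) in that contrast, for Ifi207 in UT (0.0089), and for Ifi207 (−0.12), Mndal (−0.028) and Ifi205 (−0.16) in the interaction. The cause was not tested.

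Counts for other genes moved more, mainly where they were near 0 or the fold minimum was dropped. Without a fold minimum, type I interferon signalling had 14 calls with LPS in each genotype, 8 between genotypes in UT, 8 with LPS and 6 in the interaction, interferon-stimulated genes 24, 6 and 24, DNA sensing 3 in UT and 2 in the interaction, the inflammasome 4 and 2, and other PYHIN genes 2 with LPS and 3 in the interaction. With the covariate, type I interferon signalling had 0 calls in UT and in the interaction, interferon-stimulated genes 4 and 0, other PYHIN genes 0 in the interaction, and the neighbours 0 in UT, with LPS and in the interaction. Type I interferon signalling had 1 call between genotypes with LPS by DESeq2, with the compared groups only and with protein-coding genes only. Other PYHIN genes had 1 call in UT with protein-coding genes only. The neighbours had 8 calls for LPS in WT with no filter on low counts, 1 where a mean CPM of at least 1 was required and 2 with protein-coding genes only, and for LPS in KO 1 and 2 under the last 2 settings. Their genotype calls fell to 0 at a mean CPM of at least 1, in UT also with the compared groups only, and with LPS also by DESeq2 and with protein-coding genes only. With a library left out, calls ran from 0 to 1 for other PYHIN genes (interaction) and for the neighbours in UT and in the interaction, from 1 to 2 for type I interferon signalling in UT and from 1 to 3 for interferon-stimulated genes in the interaction. Over all genes, the UT calls between genotypes were 283, against 160 at a mean CPM of at least 1 and 132 with the covariate. With LPS they were 194, against 117 and 109. In the interaction they were 335, against 186 with protein-coding genes only, 111 with the covariate, 519 without WT LPS replicate 1 and 197 without WT LPS replicate 3. Depth limits Ifi208 in KO, Ifi214 in UT, Ifi202b, Ifnb1 and the neighbours, which rest on few counts.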

Other observations

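The genes that surround the PYHIN proteins in DNA sensing and in the inflammasome also responded to LPS, with log2 fold changes given for WT and then KO (edgeR, adjusted p below 0.05 unless stated). Of 8 genes of cytosolic DNA sensing, 5 rose past the call in both genotypes, beside 19.1% of all genes in WT and 17.7% in KO. They were Zbp1 (3.47 and 4.14), the kinase Ikbke (3.14 and 3.15), the nucleotide hydrolase Samhd1 (2.15 and 2.54), the DNA sensor Cgas (1.59 and 1.89) and the kinase Tbk1 (1.53 and 1.55). Tmem173, the gene of STING, was lower with LPS (−0.90 and −0.94), as was the endosomal DNA receptor Tlr9 (−0.96 and −0.74), and both stayed under the fold minimum. Ddx41 had 0.10 (adjusted p = 0.228) and 0.05 (adjusted p = 0.557).

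Of 11 inflammasome genes, 7 rose past the call in WT and 8 in KO, beside 19.1% and 17.7% of all genes. Il1b, the cytokine that caspase-1 activates, had the largest rise (7.83 and 7.84), followed by Mefv (4.02 and 4.001), Casp4 (3.75 and 3.82), Il18 (3.18 and 3.40), Nlrp3 (3.10 and 3.14), Casp1 (2.79 and 2.85) and Gsdmd (1.90 and 1.91). Nlrc4 lay at the fold minimum (0.996 and 1.08) and passed the call in KO. Pycard, the adaptor of Aim2, was higher by 0.87 and 0.52, and Ninj1 by 0.81 in WT, all under the fold minimum. In KO Ninj1 had 0.12 (adjusted p = 0.136). Nlrp1b fell in both genotypes (−3.31 and −3.43).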
